A study of Homo sapiens with 4 samples.

Results

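ESRP1 and the regulators of epithelial state around it were followed on 4 Affymetrix arrays of the human breast cancer line SK-BR-3, which is HER2-amplified and expresses a missense-mutant p53. The members are 10 genes: ESRP1, ESRP2, RBM47, GRHL2, OVOL1, OVOL2, ZEB1, ZEB2, SNAI1 and SNAI2. Every probe set whose platform annotation names 1 of them and no other gene was taken, which gave 23 of the 41091 probe sets with a single gene symbol and 9 of 19775 genes. ESRP2 contributed none, because its probe set is also listed for a microRNA gene. ESRP1 was chosen on a measured value, its lower signal with Pontin siRNA on 1 of its probe sets, so that value is described here and nothing is supported with it.

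All 4 groups derive from the same line, carry the same mutant p53 and were selected with puromycin. They are control shRNA, p53 shRNA, siRNA against Pontin in control shRNA cells, and siRNA against Pontin in p53 shRNA cells, with 1 array each. The control vector is named as control shRNA in one label and as an empty vector in another, the arms without Pontin siRNA are titled sicon, and no siRNA sequence or clone is given. RNA was taken 24 h after the siRNA, and 200 ng was labelled per array. With no replicate within a group, no p-value is given. The number of arrays limits the precision.

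Epithelial cells are held in their state by RNA-binding proteins and transcription factors that oppose a small set of repressors. ESRP1 and ESRP2 are splicing factors that direct epithelial exon choice, RBM47 is an RNA-binding protein of epithelial cells, GRHL2 activates junction genes, and OVOL1 and OVOL2 are zinc finger repressors that restrain ZEB1. ZEB1, ZEB2, SNAI1 (Snail) and SNAI2 (Slug) bind E-boxes, repress epithelial genes including ESRP1, and drive epithelial-mesenchymal transition (EMT).

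The E-box read by ZEB and Snail factors is CACCTG, which is CAGGTG on the other strand. RefSeq promoter windows, 250 bases before to 50 after a start on GRCh38.p14, were searched for RBM47, ZEB1 and ZEB2: 4 windows of RBM47, 7 of ZEB1 and 1 of ZEB2. The other 7 members, ESRP1 among them, were not searched here. The E-box was present in 1 RBM47 window, 2 ZEB1 windows and 0 ZEB2 windows, 25% of the 12, against 20.6% of all 35116 windows of this length. The matches upstream of the start are shown because they are the letters through which the repressors below are known to act, with the E-box in capitals. A match is a description of these letters and not a bound site.
RBM47, chr4:40514760-40514813, minus strand: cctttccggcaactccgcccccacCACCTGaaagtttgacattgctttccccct
ZEB1, chr10:31318336-31318389, plus strand: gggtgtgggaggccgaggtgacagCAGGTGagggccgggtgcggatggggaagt
ZEB1, chr10:31318966-31319003, plus strand: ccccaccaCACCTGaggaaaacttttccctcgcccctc
ZEB1, chr10:31319107-31319160, plus strand: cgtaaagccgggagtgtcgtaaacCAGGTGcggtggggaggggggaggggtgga

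Signals are MAS5 values on a linear scale, and a log2 ratio of 1 is a doubling. Each knockdown was read in 2 pairs that share no array. For Pontin siRNA the pairs were Pontin siRNA over control shRNA, then both knockdowns over p53 shRNA. For p53 shRNA they were p53 shRNA over control shRNA, then both knockdowns over Pontin siRNA. A probe set was called where both ratios had the same sign and reached 1.5-fold, 0.58 in log2. Probe sets were kept where their mean log2 signal reached that of the median probe set (15.3) and are termed bright at the 75th percentile, 110.3. Of the 23 member probe sets, 11 were kept and 7 were bright. Probe sets differ in affinity, so each signal is compared across arrays and not with another probe set.

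RUVBL1, which encodes Pontin, had signals of 477.7 and 127.4 in the first Pontin pair and 398.2 and 65.8 in the second, 3.75-fold and 6.05-fold lower with the siRNA. All 6 markers of HER2-amplified luminal cells were bright, with summed signals from 34679.5 to 40466.8 across arrays. Of the other lists, 0 of 3 leukocyte markers, 2 of 3 endothelial markers and 1 of 5 fibroblast markers (COL1A1) were kept, with summed signals of 11.3 to 32.9, 98.9 to 149.6 and 182.4 to 205.0. The array with both knockdowns stood apart: its 18 hybridization control probe sets had a mean 1.42 times that on the control array, and its median signal was 19.6 against 15.9 to 16.5 on the others. It belongs to the second pair of each knockdown, so the first pair is the value without it.

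**Figure D1:**
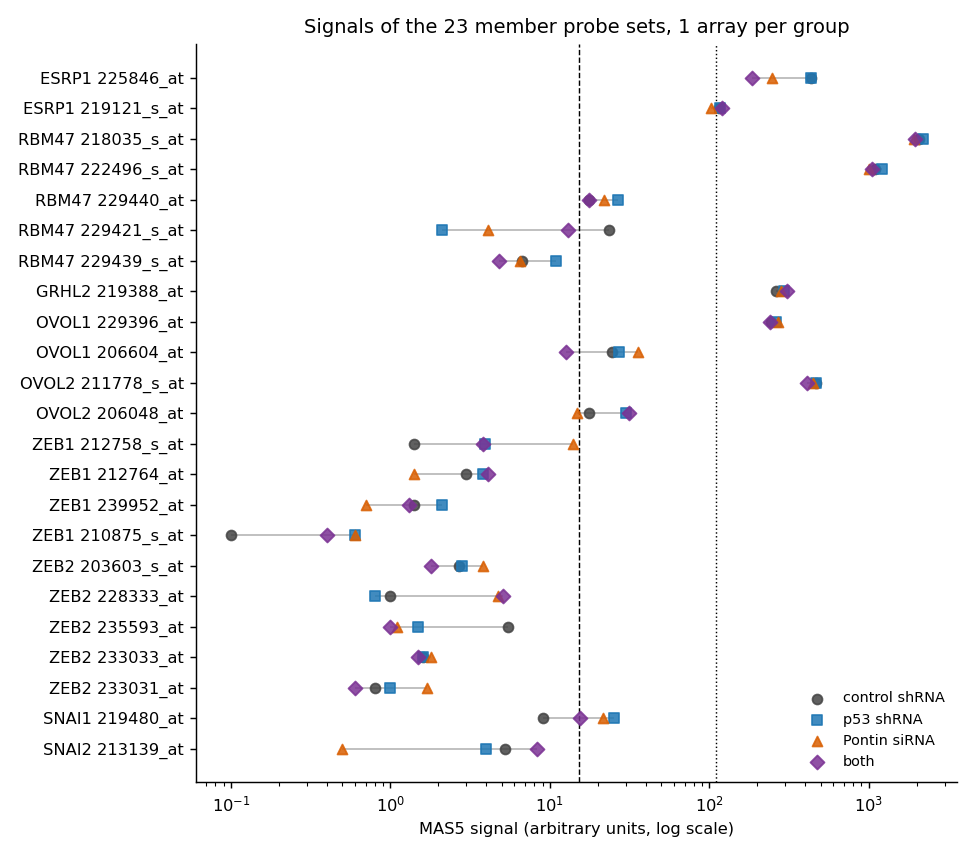
MAS5 signal (log axis, arbitrary units) of each of the 23 member probe sets, with 1 symbol per array and a grey line from the lowest to the highest array; the dashed line marks the median probe set (15.3) and the dotted line the 75th percentile (110.3). All ZEB1, ZEB2 and SNAI2 symbols lie left of the dashed line, and among bright probe sets only ESRP1 225846_at has widely separated arrays (186.0 to 436.5).

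ESRP1, the epithelial splicing factor, differed between its 2 probe sets. On 225846_at the signal was 436.4 (control shRNA), 436.5 (p53 shRNA), 248.1 (Pontin siRNA) and 186.0 (both). The 2 arrays with Pontin siRNA were the low ones, and they did not overlap the other 2. The rule that chose ESRP1 used this value, and the share of all probe sets with such an order was not counted. Nothing is therefore read from 2 arrays lying below or above the other 2, here or on the probe sets that follow. The log2 ratios were -0.81 and -1.23, a signal 1.76-fold and 2.35-fold lower. In bulk RNA, fewer cells of a type and less RNA per cell cannot be told apart.

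On 219121_s_at, the other ESRP1 probe set, the signal was 114.9 (control shRNA), 117.4 (p53 shRNA), 102.1 (Pontin siRNA) and 120.5 (both). Here the lowest and the highest array both carried Pontin siRNA, so the groups overlapped. The Pontin log2 ratios were -0.17 and 0.04. This probe set lay just inside the bright class, with a geometric mean signal of 113.5 against the limit of 110.3. The name ending _s_at marks a design that can match several transcripts. The files give no probe positions, so which part or isoform of the transcript each probe set reads was not analysed here.

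The difference between the ESRP1 probe sets was -0.96 in mean Pontin log2 ratio. It was -0.64 in the first pair, without the array with both knockdowns. Among 2964 genes with at least 2 bright probe sets, the median difference between a gene's highest and lowest probe set was 0.16, and 14 genes, ESRP1 among them, differed as far as ESRP1 or farther. Of these 2964 genes, 57 had at least 1 bright probe set called lower with Pontin siRNA. In 8 of the 57 every bright probe set was called, and in 49 at least 1 was not. The median difference in the 57 was 0.50, and 8 of them, ESRP1 included, reached its size. Most of the 57 genes thus had a called probe set beside an uncalled one. The call is a threshold, so an uncalled probe set can lie close to a called one, and most of the 57 differed less than ESRP1.

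**Figure D2:**
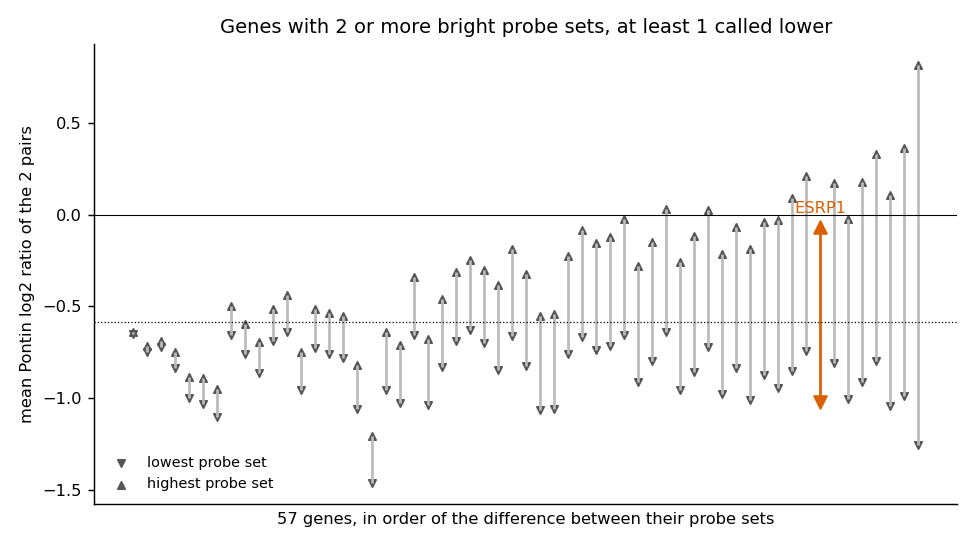
The 57 genes with 2 or more bright probe sets of which at least 1 was called lower with Pontin siRNA, ordered by the difference between their probe sets; triangles give the lowest and highest mean Pontin log2 ratio of a gene, and the dotted line marks a 1.5-fold decrease. ESRP1 (orange, -1.02 and -0.07) lies near the wide end, among 8 genes with a difference of 0.96 or more.

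QKI, another splicing regulator of EMT exons, was 1 of those 8 genes and is named here after its values were seen. Its probe set 212636_at had signals of 488.5 (control shRNA), 470.2 (p53 shRNA), 281.5 (Pontin siRNA) and 230.9 (both), log2 ratios of -0.80 and -1.03. Its other 4 bright probe sets had mean Pontin ratios of -0.14, -0.02, 0.01 and 0.18. Of the 5 probe sets, 212636_at alone was called, and on 212262_at, with signals of 347.6, 346.1, 303.5 and 324.4, the Pontin siRNA arrays were also the lowest, by small margins.

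With p53 shRNA, ESRP1 225846_at had log2 ratios of 0.00 without and -0.42 with Pontin siRNA, and 219121_s_at had 0.03 and 0.24. Neither was called. On 225846_at the control and p53 shRNA arrays were level, while the array with both knockdowns was 1.33-fold below the one with Pontin siRNA alone. The departure from additivity, taken as log2(both) minus log2(p53 shRNA) minus log2(Pontin siRNA) plus log2(control shRNA), was -0.42 on 225846_at and 0.21 on 219121_s_at. Both were below 0.58, and their signs differed.

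Of the 11 member probe sets kept, 1 was called with Pontin siRNA in either direction, the ESRP1 probe set that chose the gene. Of all 22794 probe sets kept, 2.72% were called. Among bright probe sets the count was 1 of 7 members against 1.26% of all 12179, and since the rule used this contrast nothing is read from it. With p53 shRNA 1 of 11 was called, against 2.16% of all probe sets kept. Of the 7 bright members 0 were called with p53 shRNA, against 0.558% of all bright ones. Counts of 1 in 11 and 0 in 7 are too small to be set apart from these shares.

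**Figure D3:**
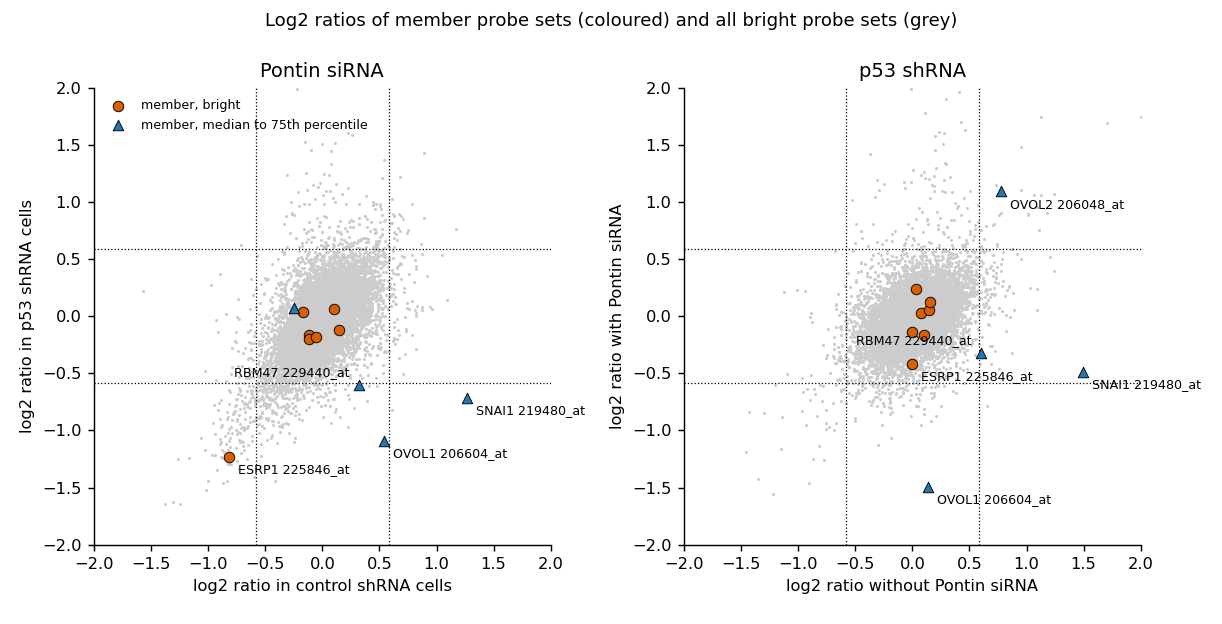
Log2 ratios in the first pair (x axis) and the second pair (y axis) for Pontin siRNA (left) and p53 shRNA (right); grey points are bright probe sets of all genes, of which 1 on the left and 7 on the right lie beyond the axes at 2, and coloured symbols are the 11 member probe sets kept. ESRP1 225846_at is the only bright member outside the dotted 1.5-fold lines in both pairs (-0.81 and -1.23 with Pontin siRNA), and the others cluster near 0.

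The other RNA-binding member, RBM47, was level across arrays on its 2 bright probe sets. On 218035_s_at the signal was 2070.4 (control shRNA), 2184.1 (p53 shRNA), 1909.2 (Pontin siRNA) and 1948.3 (both). On 222496_s_at it was 1093.9, 1207.7, 1010.3 and 1051.5 in the same order. On both probe sets the 2 arrays with Pontin siRNA were the lowest, by small margins. The Pontin ratios were -0.12 and -0.16 on 218035_s_at and -0.11 and -0.20 on 222496_s_at. In a single Pontin pair, the median size of the log2 ratio over all bright probe sets was 0.13 in control shRNA and 0.16 in p53 shRNA cells, so these differences are of ordinary size. The p53 ratios were 0.08 and 0.03 on 218035_s_at and 0.14 and 0.06 on 222496_s_at.

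The other 3 RBM47 probe sets had signals from 2.1 to 26.7. On 229440_at, the only one kept, the Pontin ratios were 0.32 and -0.60, and the departure was -0.92. On 229421_s_at the signals were 23.4, 2.1, 4.1 and 13.0, and the 2 pairs of each knockdown went opposite ways by more than 1.5-fold. On 229439_s_at they were 6.7, 10.9, 6.5 and 4.8. No RBM47 probe set was called with either knockdown.

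GRHL2, the grainyhead factor that activates epithelial junction genes, is read by the single probe set 219388_at. Its signal was 261.9 (control shRNA), 292.1 (p53 shRNA), 280.7 (Pontin siRNA) and 305.2 (both). The arrays lay within 1.17-fold of each other, the control lowest. The log2 ratios were 0.10 and 0.06 with Pontin siRNA and 0.16 and 0.12 with p53 shRNA, and the departure was -0.04.

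OVOL1 and OVOL2, the zinc finger repressors that restrain ZEB1, each had 1 bright and 1 dimmer probe set. OVOL1 229396_at read 243.5 (control shRNA), 260.7 (p53 shRNA), 269.6 (Pontin siRNA) and 240.0 (both). Its Pontin ratios were 0.15 and -0.12 and its p53 ratios 0.10 and -0.17, so the sign turned between pairs in each case. OVOL2 211778_s_at read 465.3, 463.7, 449.0 and 408.2 in the same order. Its Pontin ratios were -0.05 and -0.18, and its p53 ratios were 0.00 and -0.14, with the array with both knockdowns lowest.

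On the dimmer probe sets of these genes the arrays differed more. OVOL2 206048_at was the only member probe set kept that was called with p53 shRNA: its signal was 17.6 (control shRNA), 30.1 (p53 shRNA), 14.8 (Pontin siRNA) and 31.6 (both). The 2 p53 shRNA arrays were above the other 2, with log2 ratios of 0.77 and 1.09. The bright OVOL2 probe set gave 0.00 and -0.14, so the call rests on 1 probe set of low signal, and with 16 added to every signal the mean ratio was 0.54 and the call was lost. OVOL1 206604_at had signals of 24.6, 27.0, 35.8 and 12.7, with the array with both knockdowns lowest. Its Pontin ratios were 0.54 and -1.09 and its departure -1.63.

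Taking the 6 bright member probe sets other than ESRP1 225846_at together, the Pontin ratios ran from -0.17 to 0.15 in the first pair and from -0.20 to 0.06 in the second. The p53 ratios ran from -0.005 to 0.16 and from -0.17 to 0.24. The highest array was at most 1.20 times the lowest on any of them. Of all bright probe sets, 2.3% and 5.03% were at least 1.5-fold apart in the first and second Pontin pair. For p53 shRNA these shares were 1.84% and 2.46%.

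The repressors were at low signal on every array. ZEB1 and ZEB2, homeobox zinc finger repressors of epithelial genes, had 9 probe sets with signals from 0.1 to 14.0 and a median of 1.55 over their arrays, and none was kept. SNAI2 213139_at had signals of 5.2 (control shRNA), 4.0 (p53 shRNA), 0.5 (Pontin siRNA) and 8.3 (both). All 40 values of these 10 probe sets lay under 15.3. No detection calls were used here, so a low signal is not shown to be background.

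Among the ZEB1 probe sets, 212758_s_at had signals of 1.4, 3.9, 14.0 and 3.8, with Pontin siRNA alone the highest array, and 212764_at had 3.0, 3.8, 1.4 and 4.1, with Pontin siRNA alone the lowest. These 2 probe sets of a gene thus placed the same array at opposite ends. Of the 5 ZEB2 probe sets, 228333_at had 1.0, 0.8, 4.7 and 5.1, higher on both Pontin siRNA arrays, while 235593_at had 5.5, 1.5, 1.1 and 1.0, lower on both. The others ran from 0.6 to 3.8. For scale, 64.1% of all probe sets below the median signal were at least 1.5-fold apart in the first Pontin pair. Of the same class, 21.0% were that far apart in both Pontin pairs with opposite signs. None of the probe sets named in this paragraph showed such opposition in the Pontin pairs. The share of this class that moved the same way in both pairs was not counted.

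SNAI1 219480_at, the single Snail probe set, was kept just above the filter, with a geometric mean signal of 16.7 against 15.3. Its signals were 9.0 (control shRNA), 25.4 (p53 shRNA), 21.7 (Pontin siRNA) and 15.5 (both). The control was lowest, and each single knockdown was above the array with both. The Pontin ratios were 1.27 and -0.71 and the p53 ratios 1.497 and -0.49, a departure of -1.98. In the first pair alone, without the array with both knockdowns, SNAI1 would be called higher with either knockdown. In the median to 75th percentile class, 18.4% of probe sets were at least 1.5-fold apart in the first Pontin pair and 19.2% in the first p53 pair. In that class 2.14% were that far apart in both Pontin pairs with opposite signs, as SNAI1 was. The share near the filter, where SNAI1 lies, was not counted.

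A departure from additivity of at least 1.5-fold was seen on 3 of the 11 member probe sets kept, OVOL1 206604_at, SNAI1 219480_at and RBM47 229440_at, all downward. Over all probe sets kept this share was 16.3%. It was seen on 0 of the 7 bright member probe sets, against 3.01% of all bright ones. The 3 belong to the class between the median and the 75th percentile of signal. The share in that class alone, and the share going downward, were not counted, so 3 of 11 is not read as raised.

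The 6 bright genes whose 4-array pattern lay nearest to ESRP1 225846_at were DNAJC12, SPTLC1, BLOC1S2, CZIB, P4HA2 and TDG. Likeness was the Euclidean distance between log2 signals centred on each gene's own mean, over the 4 arrays, and it ran from 0.031 to 0.15. These genes were chosen on the same 4 arrays. Ratios near those of ESRP1 225846_at therefore follow from the choice, and nothing is read from them. DNAJC12, which encodes a J-domain cochaperone, had signals of 628.5, 621.5, 348.3 and 268.1, Pontin ratios of -0.85 and -1.21. SPTLC1, a subunit gene of serine palmitoyltransferase, had 2011.7, 2031.6, 1190.0 and 911.8, ratios of -0.76 and -1.16. P4HA2, a collagen prolyl hydroxylase gene, was at -0.73 and -1.09, and TDG, a thymine DNA glycosylase gene, at -0.82 and -1.09.

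Of these neighbours, 4 have further probe sets. The further DNAJC12 probe sets had mean Pontin ratios of -0.89 and -0.97. The further bright SPTLC1 probe set had a mean of -0.75, with -0.56 and -0.94 in the 2 pairs, and was not called. The dimmer SPTLC1 probe set, with signals from 18.5 to 30.5, had -0.69 and -0.32 and was not called either. The further P4HA2 probe set of higher signal (40.9 to 85.1) gave -0.84. TDG had -0.26 on its other probe set, which was not called. SPTLC1 and TDG thus had an uncalled probe set beside a called one. Their bright probe sets differed less in mean Pontin ratio than those of ESRP1, by 0.21 in SPTLC1 and 0.70 in TDG against 0.96. The further bright SPTLC1 probe set was lower in both pairs and missed the call in 1 of them. BLOC1S2 and CZIB have 1 probe set each.

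The 6 lists below set the members in their pathway: other epithelial transcription factors, other EMT transcription factors, other splicing regulators of EMT exons, genes with ESRP-regulated exons, epithelial genes repressed by ZEB or Snail factors, and mesenchymal genes. Each gene was read on its brightest probe set. Of 93 list genes 67 were kept, and 0 were called with Pontin siRNA, where 2.42% of all 12066 genes kept were called. With p53 shRNA 1 was called higher and 2 lower, where 2.25% of all genes kept were called in either direction.

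The epithelial genes that ZEB and Snail factors repress had a median mean ratio of 0.10 with Pontin siRNA, 15 of 20 above 0, and 0.08 with p53 shRNA, 14 of 20 above 0, with 0 called. Over all genes kept the medians were 0.01 and -0.0024, with 51.8% and 49.5% above 0. With each array centred on its median these signs turned: the list medians were -0.07 and -0.05, with 8 and 6 of 20 above 0, against -0.16 and -0.13 over all genes kept. Under that centring the Pontin medians of the other 5 lists lay from -0.25 to -0.06, all below 0. MAL2, which encodes a membrane trafficking protein, had Pontin ratios of -0.10 and -0.04, and EPCAM, an epithelial adhesion molecule gene, 0.03 and -0.05. CDH1, which encodes E-cadherin and is named after its values were seen, had signals of 5.3, 1.8, 13.0 and 9.3 and was not kept. SK-BR-3 is known to lack E-cadherin.

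Among 9 genes with ESRP-regulated exons, 0 were called, and the medians were 0.07 with Pontin siRNA and 0.13 with p53 shRNA. ENAH, an actin regulator gene, had Pontin ratios of 0.05 and 0.25, and SCRIB, a polarity scaffold gene, 0.24 and 0.25. CD44, the hyaluronan receptor gene whose variant exons are a known ESRP target, is named after its values were seen: its signals were 89.9, 111.0, 70.7 and 70.3, ratios of -0.35 and -0.66. These are signals of whole probe sets, and exon use was not analysed here.

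Of 14 other splicing regulators kept, 0 were called, with medians of -0.08 with Pontin siRNA and 0.01 with p53 shRNA. HNRNPM had Pontin ratios of -0.06 and -0.08, and SRSF3 -0.21 and -0.20. Of 12 other epithelial transcription factors kept, 0 were called with Pontin siRNA and 2 lower with p53 shRNA. ELF5, an ETS factor of luminal progenitors, had signals of 138.3 (control shRNA), 55.4 (p53 shRNA), 117.3 (Pontin siRNA) and 70.2 (both), p53 ratios of -1.32 and -0.74. Its other probe set, 220624_s_at, with signals from 4.7 to 15.2, had -0.02 and -1.69, so the decrease was not seen there in the first pair. GATA3, a luminal factor, had 650.5, 334.8, 556.2 and 350.4, p53 ratios of -0.96 and -0.67, and its other 2 probe sets had -0.81 and -0.60, and -0.57 and -0.52. On both genes the 2 p53 shRNA arrays were below the other 2. Both calls rest on probe sets of a cross-hybridizing name type and were lost when such probe sets were left out. TFAP2C had p53 ratios of -0.01 and 0.05 and GRHL1 -0.17 and 0.10.

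Of 12 other EMT transcription factors, 5 were kept and 0 called, with medians of 0.11 and 0.07. SOX4 had Pontin ratios of 0.07 and 0.15, and TCF3 0.33 and 0.18. The signals of TWIST1, a basic helix-loop-helix EMT factor gene named after its values were seen, were 3.8, 1.6, 2.1 and 1.3.

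Of 19 mesenchymal genes, 7 were kept, with medians of 0.02 with Pontin siRNA and 0.36 with p53 shRNA. ACTA2, which encodes smooth muscle actin, was the only call, higher with p53 shRNA: 19.8 (control shRNA), 40.4 (p53 shRNA), 14.9 (Pontin siRNA) and 29.9 (both). With 16 added to every signal this call was lost. The other 2 ACTA2 probe sets, at signals from 0.3 to 16.1, did not both go that way, since 243140_at had p53 ratios of 0.81 and -2.24. S100A4 had p53 ratios of 0.27 and 0.46, and FN1, the fibronectin gene, -0.14 and -0.30. VIM, which encodes vimentin and is named after its values were seen, had signals of 7.8, 10.8, 3.9 and 18.5 and was not kept.

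**Figure D4:**
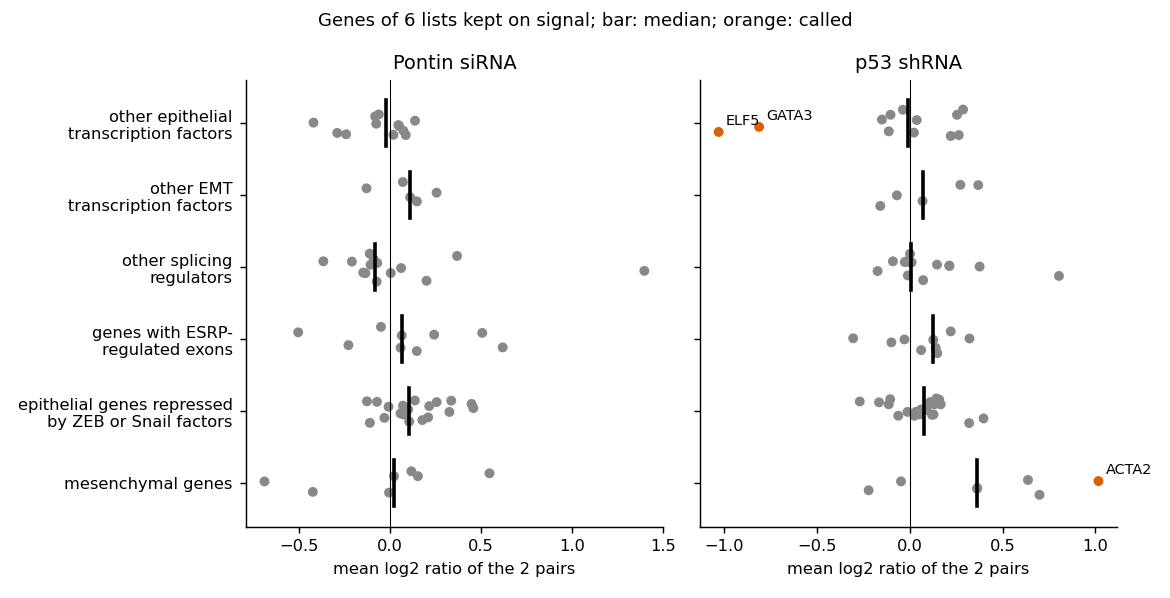
Mean log2 ratio of the 2 pairs with Pontin siRNA (left) and p53 shRNA (right) for the genes kept of 6 lists; each point is a gene on its brightest probe set, black bars are list medians, and called genes are orange. No list gene was called with Pontin siRNA, and ELF5, GATA3 and ACTA2 were called with p53 shRNA.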

How the data were processed

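RNA from 4 SK-BR-3 samples was measured on 1 array each. The deposited values are MAS5 signals, a linear intensity per probe set, per the submitters' processing notes, which give no version. Trimming 2% from either end left a mean of 150.0 on every array, so the deposited values had been scaled to a common level. No scanner files or detection calls were used here. Probe sets were named by the platform annotation, with symbols updated by Entrez identifier in a RefSeq gene table. Of 54675 probe sets, 41091 had 1 symbol, 1801 several, 11721 none and 62 were controls. The 14 signals of 0 in the table, none in a member, were set to 0.1. Log2 signals, ratios and calls were computed in Python 3.11.15 and cyclic loess in limma 3.58.1. The call rule was tested on simulated bright probe sets with 2-fold changes. The simulated noise was independent and of equal size on every array, so an array that stands apart was not modelled. The test checks the computation and does not give an error rate for these arrays. It was not tested at lower signal, where the OVOL2, ELF5 and ACTA2 calls lie. Percentiles were taken over all probe sets except controls.

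The members and lists were chosen with earlier results of these data known. The genes named were all member probe sets, RUVBL1, the 6 genes nearest to ESRP1 225846_at, and of each list the called genes and the 2 of highest mean signal. Genes outside this rule are marked as named after their values were seen. The p53 shRNA's target is not reported here, so its knockdown was not checked.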

Additional observations from a re-analysis of the deposited data

Results flagged for a closer look

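Some member probe sets were at least 1.5-fold apart with opposite signs in the 2 pairs of a knockdown, and none of these differences was tested. The values are departures from additivity in log2. RBM47 229421_s_at had 5.14, with both knockdowns affected. ZEB1 212758_s_at had -3.36 (p53 shRNA pairs 1.48 and -1.88), and ZEB1 210875_s_at had -3.17, with ratios of 2.58 and -0.58 for either knockdown. ZEB2 233031_at had -1.82 (Pontin pairs 1.09 and -0.74), SNAI1 219480_at -1.98 and SNAI2 213139_at 4.43 (Pontin pairs -3.38 and 1.05). The highest signal among these 6 probe sets was 25.4, and 5 of them lay below the signal filter. Over all probe sets below the median signal, 21.0% showed such opposition for Pontin siRNA and 21.4% for p53 shRNA. SNAI1 219480_at, the one above the filter, lies in the median to 75th percentile class. In that class the shares were lower, 2.14% and 2.43%.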

How the results depend on the processing

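ESRP1 225846_at was called lower with Pontin siRNA under quantile normalization, cyclic loess, median centring and a pseudocount of 16, with a mean ratio from -1.20 to -0.97, and was -0.81 in the pair without the array with both knockdowns, an alternative chosen after seeing the data. The probe set difference stayed between -0.96 and -0.64. Member probe sets called with Pontin siRNA, 1 by the main rule, were 0 at 2-fold, 4 with no filter and 2 in that pair alone. Of all probe sets, 0.307% were called at 2-fold, 11.4% with no filter and 9.81% in that pair, so the share moved too. Those called with p53 shRNA, also 1, were 0 with the pseudocount, at 2-fold and at the 75th percentile, 2 with no filter and 3 in that pair. Over all probe sets the shares called with p53 shRNA were 0.803%, 0.39%, 0.558%, 10.9% and 9.94%, in the same order. Departures, 3 by the main rule, were 12 with no filter and 0 at the 75th percentile. The share of all probe sets departing with no filter was not counted. List genes called, 3 by the main rule, were 12 at a fold threshold set below 1.5, 1 at 2-fold, 7 with no filter, 1 at the 75th percentile, 1 without cross-hybridizing probe set types (ACTA2) and 6 in that pair. At that lower threshold 10.8% of all probe sets kept were called with Pontin siRNA and 8.38% with p53 shRNA. The rises with no filter and in that pair stand beside the rises in share given above. Shares over all genes were not counted for these settings. Median centring moved the median Pontin ratio of all probe sets kept to -0.15 and the median p53 ratio to -0.13. Of 22 mean ratios of the member probe sets kept, 9 turned sign under an alternative, none of them called: 4 under median centring (the Pontin ratios of GRHL2 and OVOL1 229396_at and the p53 ratios of both bright RBM47 probe sets) and 5 in the pair without the array with both knockdowns (both ratios of OVOL1 206604_at, the p53 ratios of ESRP1 225846_at and OVOL1 229396_at, and the Pontin ratio of RBM47 229440_at). The Pontin ratio of GRHL2, 0.08, became -0.09, and that of OVOL1 206604_at, -0.27, became 0.54. Of 124 single-probe-set values under alternatives, 120 kept their side of the call rule. Those from the setting without cross-hybridizing probe set types equal the main values, so they could not change side. The low signals of ZEB1, ZEB2, SNAI1 and SNAI2 limit what can be read of them.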

Other observations

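Probe set 219395_at, which the annotation lists for both ESRP2 and a microRNA gene, belongs to no comparison above because it names 2 genes. Its signals were 648.7 (control shRNA), 550.4 (p53 shRNA), 717.1 (Pontin siRNA) and 563.0 (both). The Pontin log2 ratios were 0.14 and 0.03 and the p53 ratios -0.24 and -0.35, with the 2 p53 shRNA arrays below the other 2. None of these reached 1.5-fold.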
